A study of Triticum aestivum with 4 samples.

Results

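Expansins and the enzymes that build or remodel xyloglucan were followed in roots of bread wheat (Triticum aestivum, genotype UAS-375) that grew from seeds spun in hypergravity. The members were the transcripts whose best protein hit came from the grass genera Aegilops, Triticum, Hordeum or Brachypodium and whose hit name held expansin, xyloglucan or galactoside 2-alpha-L-fucosyltransferase. Of 91482 assembled transcripts with a value for each library, 80 met this rule, and they belonged to 39 genes of the assembly. All 80 were tested. Of these, 75 had a hit in Aegilops tauschii, the donor of the wheat D genome, and 5 in Brachypodium distachyon. The hits therefore name the nearest annotated protein and not the wheat copy.

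The hypergravity plants came from seeds held at 10 g for 12 h and then sown in a greenhouse in upright pipes. The control plants came from untreated seeds of the same genotype, sown in the same way. Roots of both groups were taken at 45 days of age, and 2 stranded mRNA libraries were made for each group. No label tells whether both libraries of a group were made from different plants, and p-values here therefore measure only the spread between these libraries, which may be technical. The treatment ended before sowing, so what was measured is a difference in roots long after it. In such bulk tissue, a change in the number of cells of a type and a change in RNA per cell cannot be told apart.

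Xyloglucan is a hemicellulose that coats and tethers cellulose in the primary wall of growing cells. Its glucan backbone is made in the Golgi by cellulose synthase-like C proteins, which grass annotations call probable xyloglucan glycosyltransferases, and other Golgi enzymes add xylose, galactose, fucose and acetyl groups. In the wall, xyloglucan endotransglucosylase/hydrolases (XTH) cut xyloglucan chains and rejoin them to other chains or to water. Expansins loosen the wall without cutting it. The alpha class is best known from acid-induced wall extension, and the beta class is large in grasses, whose walls hold less xyloglucan and more mixed-linkage glucan than those of most dicots.

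Values are scaled counts, the read count of a transcript in a library divided by that library's size factor. The counts were recovered from the deposited group sums and came to 46604327 and 47850533 in the hypergravity libraries a and b, and to 49424285 and 53346750 in the control libraries a and b. The letters follow the size of the factor within a group and pair nothing across groups. The lowest count of any tested transcript in any library was 9, so transcripts near 0 in a library were not among them. Transcripts were called at an adjusted p under 0.05 by limma over all 91482, and by that rule 13.5% of all transcripts were higher and 11.9% lower in hypergravity roots, 25.5% in either direction. Of the root markers, nitrate transporter 2.1 and nicotianamine aminotransferase had values in 16 and 15 transcripts and SHORT-ROOT in 1, while casparian strip and root cap proteins had none. The root markers summed to 18183 and 17128 scaled counts in hypergravity libraries and to 19073 and 20569 in control libraries. Of these 32 transcripts, 5 were higher and 6 lower, with 3 higher for nitrate transporter 2.1 and 2 higher and 6 lower for nicotianamine aminotransferase. Of 5 leaf markers, the small subunit of ribulose bisphosphate carboxylase, photosystem I subunits and chloroplastic fructose-1,6-bisphosphatase had no tested transcript. The leaf markers summed to 1741 and 1492 in hypergravity libraries and to 1173 and 1151 in control libraries, over 5 transcripts of which 2, both for the photosystem II 10 kDa protein, were higher. Their part in the results was not tested.

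Of the 80 members, 28 were higher and 10 were lower in hypergravity roots, or 35% and 12.5%, against 13.5% and 11.9% of all transcripts. The other 42 were not called. The share that was higher lay above that of all transcripts, and the share that was lower lay near it. The median log2 fold change was 0.16 over the members and -0.01 over all transcripts. Among members called and changed at least 1.5-fold, 25 were higher and 9 lower, against 9.8% and 8.25% of all transcripts. At 2-fold the counts were 16 and 3, against 4.94% and 3.16%. The 4 libraries did not overlap between groups for 48 members, 31 of them higher and 17 lower in hypergravity roots, against 31.9% and 32% of all transcripts, or 63.9% in either direction. In either direction the count therefore lay near the background. By direction, the share higher lay above that of all transcripts and the share lower lay below it.

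**Figure D1:**
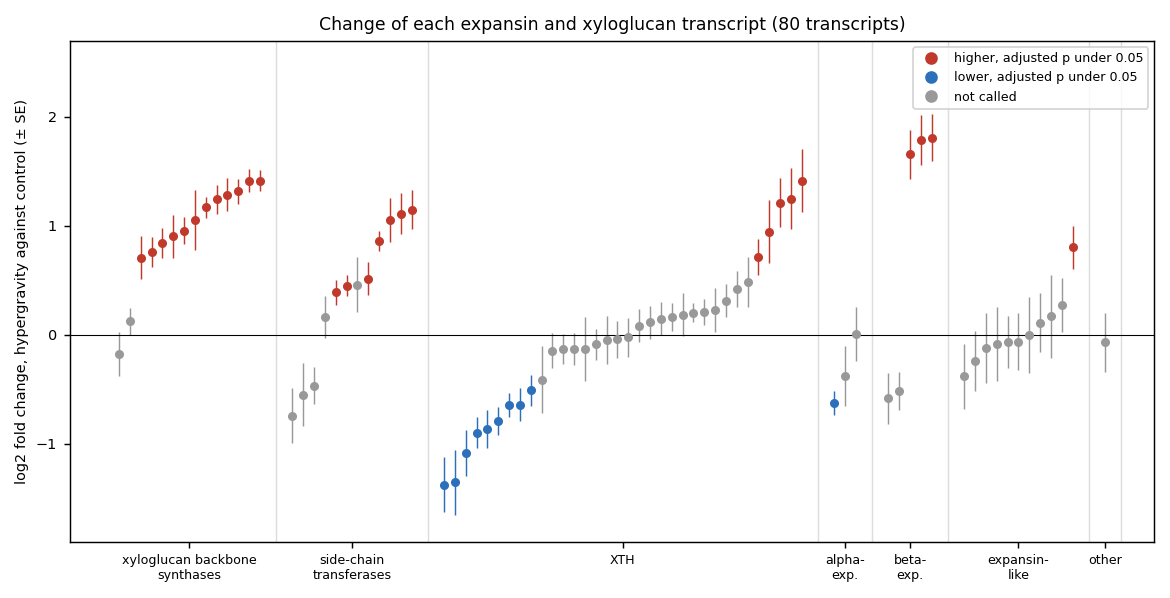
Each point is 1 of the 80 transcripts, placed by class along the horizontal axis and by its log2 fold change, hypergravity against control, on the vertical axis, with its standard error as a bar. Enzymes of xyloglucan synthesis lie mostly above 0, and XTH transcripts run from -1.38 to 1.42 with most of them not called.

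The members did not move as 1 group. Of 26 transcripts for synthesis enzymes, 19 were higher and 0 lower in the limma fit, while of 34 XTH transcripts, 5 were higher and 9 lower. Of 19 expansin transcripts, 4 were higher and 1 lower. The shares higher were 73.1% for synthesis enzymes, 14.7% for XTH and 21.1% for expansins, against 13.5% of all transcripts. The shares lower were 0% for synthesis enzymes, 26.5% for XTH and 5.3% for expansins, against 11.9% of all transcripts. The expansin counts are small. The count of 0 lower synthesis transcripts was also 0 with voom weights, but 1 with median centring and 2 without control library a, and 2 were lower at an unadjusted p under 0.05. Whether these shares differ between classes was not tested. By class, the median log2 fold change was 0.85 for synthesis enzymes, -0.03 for XTH and -0.06 for expansins.

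The backbone enzymes held the broadest change. Of 14 transcripts named probable xyloglucan glycosyltransferase, 12 were higher, 0 were lower and 2 were not called, with a median log2 fold change of 1.0. The share higher was 85.7%, against 13.5% higher and 11.9% lower among all transcripts. The 14 transcripts came from 7 assembled genes and are not independent. Summed over these transcripts, the scaled count was 8536 and 8317 in hypergravity libraries, against 3954 and 3986 in control libraries. The 2 libraries of a group lay close to each other and the groups stood far apart.

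The 3 isoforms of the assembled gene DN15802_c0_g1, with hits to probable xyloglucan glycosyltransferase 9, had the largest summed change in this class. Isoform DN15802_c0_g1_i6 had 1459 and 1440.5 scaled counts in hypergravity libraries, against 515 and 573 in control libraries, a log2 fold change of 1.41 ± 0.10 (SE, adjusted p = 1.03e-05). Isoform DN15802_c0_g1_i2 had 1388 and 1358 in hypergravity libraries, against 477 and 556 in control libraries, a log2 fold change of 1.41 ± 0.11 (adjusted p = 1.5e-05). Isoform DN15802_c0_g1_i4 had 526 and 529 in hypergravity libraries, against 186 and 249 in control libraries, a log2 fold change of 1.29 ± 0.15 (adjusted p = 0.000205). In each isoform both hypergravity libraries were more than double either control library. Per kilobase of transcript, DN15802_c0_g1_i2 was also the most abundant of the class, with a mean level of 760 scaled counts per kb over the 4 libraries.

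The assembled gene DN3905_c0_g2, with hits to probable xyloglucan glycosyltransferase 7, also had all 3 of its isoforms higher. Its isoform DN3905_c0_g2_i5 had 981 and 1049 scaled counts in hypergravity libraries, against 449 and 369 in control libraries, a log2 fold change of 1.32 ± 0.12 (adjusted p = 4.39e-05). Isoforms DN3905_c0_g2_i4 and DN3905_c0_g2_i1 had log2 fold changes of 1.25 ± 0.13 and 1.17 ± 0.10. Nearby fragments of the same read cluster were higher too. DN3905_c0_g4_i1, named for glycosyltransferase 3, had 52.1 and 41.2 scaled counts in hypergravity libraries, against 18.7 and 25.4 in control libraries (log2 fold change 1.05 ± 0.27, adjusted p = 0.0187). DN3905_c0_g3_i1, named for glycosyltransferase 7, had 98.0 and 99.9 in hypergravity libraries, against 60.1 and 60.1 in control libraries (log2 fold change 0.71 ± 0.20, adjusted p = 0.0261). These fragments gave the least secure calls of the class. The adjusted p of DN3905_c0_g3_i1 was between 0.0691 and 0.103 with any 1 of the 4 libraries left out, and that of DN3905_c0_g4_i1 was 0.0972 without hypergravity library a and 0.0753 without control library a.

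The remaining backbone transcripts comprised 3 isoforms of DN1272_c1_g1, 1 transcript of DN8122_c0_g1 and 2 of DN345_c0_g1. The DN1272_c1_g1 isoforms, with hits to glycosyltransferases 7 and 9, had log2 fold changes of 0.76 to 0.96, and DN8122_c0_g1_i4, with a hit to glycosyltransferase 1, had 0.90 ± 0.20. All 4 were called higher. The 2 transcripts not called were both from DN345_c0_g1. DN345_c0_g1_i6, named for glycosyltransferase 1, had 468 and 542 scaled counts in hypergravity libraries, against 494 and 432 in control libraries. DN345_c0_g1_i16 had 82.4 and 75.2 in hypergravity libraries, against 81.8 and 96.8 in control libraries. The libraries of the groups overlapped in both, and their log2 fold changes were 0.12 ± 0.12 and -0.18 ± 0.20. Summed over the isoforms of each gene, 6 of the 7 backbone genes were higher. These count DN3905_c0_g2, DN3905_c0_g3 and DN3905_c0_g4 separately, though they came from 1 read cluster. DN345_c0_g1, whose sum holds 6 transcripts of which 2 are members, was not called.

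Side-chain enzymes were also mostly higher, but by less. Of 12 transcripts, 7 were higher, 0 were lower and 5 were not called, and the median log2 fold change was 0.46. The share higher was 58.3%, against 13.5% higher and 11.9% lower among all transcripts. Summed over the isoforms of each gene, 4 of 9 genes were higher, 0 lower and 5 not called. Their summed scaled count was 4910 and 5021 in hypergravity libraries, against 3095 and 3481 in control libraries.

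Xyloglucan 6-xylosyltransferases put the first sugar, xylose, on the backbone, as is known from Arabidopsis. DN2736_c0_g2_i2, with a hit to probable xyloglucan 6-xylosyltransferase 1, had 1702 and 1750.5 scaled counts in hypergravity libraries, against 934 and 967 in control libraries. Its log2 fold change of 0.86 ± 0.09 (adjusted p = 0.0001) had one of the smallest standard errors of all members. It also had the highest level per length of the synthesis enzymes, 974 scaled counts per kb. The shorter DN3338_c0_g1_i1 shared the same hit, had 111 and 97.8 scaled counts in hypergravity libraries, against 86.8 and 98.6 in control libraries, and was not called.

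KATAMARI1, called MUR3 in Arabidopsis, is a galactosyltransferase that extends these xylose residues. Of the 5 transcripts named as its homologs, 4 were higher, or 80%, against 13.5% of all transcripts. The 3 isoforms of DN86945_c0_g1 changed most. DN86945_c0_g1_i1 had 208 and 258 scaled counts in hypergravity libraries, against 96.6 and 112 in control libraries, a log2 fold change of 1.15 ± 0.18 (adjusted p = 0.00115). DN86945_c0_g1_i4 had 270 and 351 in hypergravity libraries, against 123 and 163 in control libraries, a log2 fold change of 1.11 ± 0.19. DN86945_c0_g1_i5 had 119 and 146 in hypergravity libraries, against 66.1 and 60.1 in control libraries, a log2 fold change of 1.05 ± 0.20. No hypergravity library overlapped a control library in these 3 isoforms, and 31.9% of all transcripts were higher without overlap. A separate gene, DN31631_c0_g1_i3, had 737 and 655 scaled counts in hypergravity libraries, against 412 and 573 in control libraries. Its log2 fold change was 0.51 ± 0.15 (adjusted p = 0.0319), and the call was lost without hypergravity library a (adjusted p = 0.118), without hypergravity library b (0.0509) and without control library a (0.238). The last KATAMARI1 transcript, DN60790_c0_g1_i1, had 33.4 and 39.1 in hypergravity libraries, against 26.6 and 25.4 in control libraries, and was not called.

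Galactoside 2-alpha-L-fucosyltransferase adds the terminal fucose in Arabidopsis. The 2 isoforms of DN4858_c0_g2 were both higher by a modest amount. DN4858_c0_g2_i5 had 915 and 973 scaled counts in hypergravity libraries, against 683 and 695 in control libraries, a log2 fold change of 0.45 ± 0.10 (adjusted p = 0.00707). DN4858_c0_g2_i2 had 624 and 570.4 in hypergravity libraries, against 425 and 488 in control libraries, a log2 fold change of 0.39 ± 0.12 (adjusted p = 0.0337). The second call was lost without hypergravity library a (adjusted p = 0.127), hypergravity library b (0.0533) or control library a (0.226). The other fucosyltransferase transcript, DN53671_c0_g2_i2, had 138 and 136 in hypergravity libraries, against 170 and 212 in control libraries, a log2 fold change of -0.47 ± 0.17 that was not called (adjusted p = 0.0687).

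The last side-chain transcripts were low in counts. DN24284_c0_g1_i1, with a hit to galactosyltransferase GT19, had 34.4 and 28.8 scaled counts in hypergravity libraries, against 47.3 and 60.1 in control libraries. It had a log2 fold change of -0.74 ± 0.25 (adjusted p = 0.0561), and the adjusted p was 0.0431 when libraries were centred on their medians and 0.049 without control library a. DN53671_c0_g2_i2 likewise had an adjusted p of 0.0405 without control library a. DN52296_c0_g1_i1, with a hit to XLT2-like, another galactosyltransferase of xyloglucan, had 20.9 and 14.4 in hypergravity libraries, against 24.7 and 27.2 in control libraries. It was not called (log2 fold change -0.55 ± 0.29, adjusted p = 0.195).

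**Figure D2:**
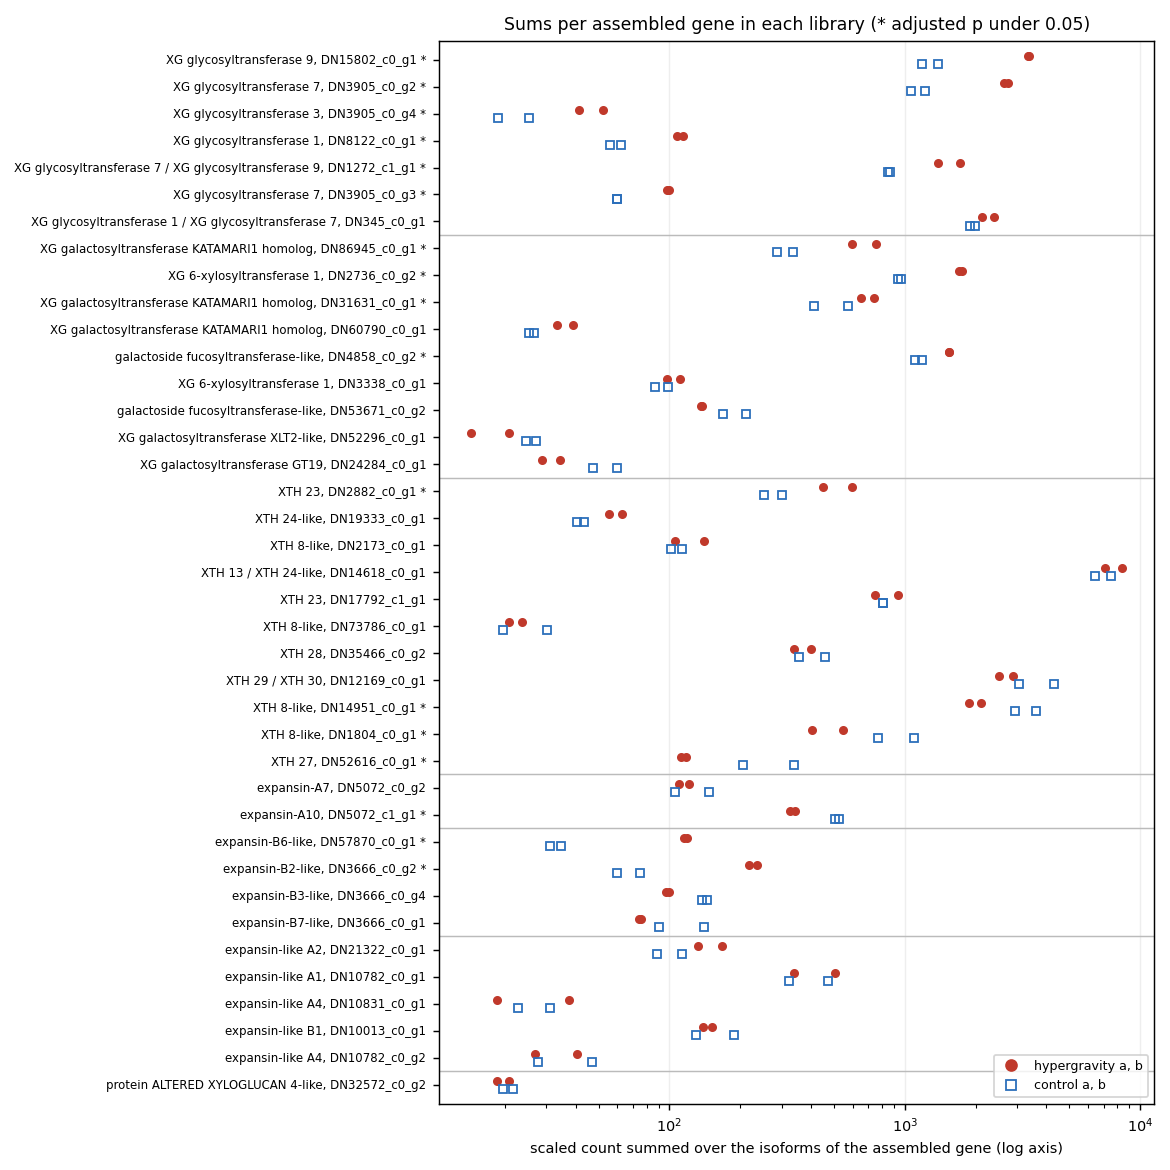
Each row is 1 of the 39 assembled genes with members, grouped by class, and the horizontal log axis gives the scaled count summed over its isoforms, with 1 filled circle per hypergravity library and 1 open square per control library; asterisks mark an adjusted p under 0.05. DN15802_c0_g1, in the top row, had 3372 and 3328 in hypergravity libraries, against 1178 and 1378 in control libraries, and its symbols do not overlap.

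XTH transcripts were called in both directions. Of 34 transcripts in 11 assembled genes, 5 were higher, 9 were lower and 20 were not called. The summed scaled count was 16147 and 13704 in hypergravity libraries, against 14987 and 18603 in control libraries, so that the groups overlapped. As a share of their own number, 14.7% were higher and 26.5% lower, against 13.5% and 11.9% of all transcripts.

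The lower XTH transcripts came from 4 assembled genes. In DN52616_c0_g1, with hits to XTH protein 27, isoform DN52616_c0_g1_i5 had 51.1 and 63.8 scaled counts in hypergravity libraries, against 119 and 188 in control libraries (log2 fold change -1.38 ± 0.25, adjusted p = 0.00284). DN52616_c0_g1_i1 had 28.2 and 31.9 in hypergravity libraries, against 58.2 and 105 in control libraries (log2 fold change -1.36 ± 0.30, adjusted p = 0.00817). Both hypergravity libraries were low, and the 2 control libraries differed between themselves. The call of DN52616_c0_g1_i1 was lost without control library b (adjusted p = 0.055). The remaining isoform, DN52616_c0_g1_i4, had 32.3 and 21.6 in hypergravity libraries, against 28.6 and 44.2 in control libraries, and was not called.

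Transcripts with hits to XTH protein 8-like made up most of the other lower calls, 5 of 7 transcripts with this name. DN1804_c0_g1_i2 had 226 and 169 scaled counts in hypergravity libraries, against 333 and 519 in control libraries, a log2 fold change of -1.08 ± 0.21 (adjusted p = 0.00435). DN14951_c0_g1_i6 had 227 and 219 in hypergravity libraries, against 373 and 467 in control libraries, a log2 fold change of -0.90 ± 0.14 (adjusted p = 0.0013). DN14951_c0_g1_i1, the transcript with the highest level per length of all members at 1740 scaled counts per kb, had 1179 and 1052 in hypergravity libraries, against 1591.5 and 1911 in control libraries, a log2 fold change of -0.65 ± 0.11 (adjusted p = 0.00222). The groups did not overlap in any of these, and 32% of all transcripts were lower without overlap. The other isoforms of the same genes, DN1804_c0_g1_i3 and DN14951_c0_g1_i4, had log2 fold changes of -0.87 ± 0.18 and -0.79 ± 0.13 and were called. The 2 XTH 8-like transcripts from other genes were not called. DN73786_c0_g1_i1 had 20.9 and 23.7 in hypergravity libraries, against 19.7 and 30.1 in control libraries, and DN2173_c0_g1_i1 had 141 and 106 in hypergravity libraries, against 102 and 114 in control libraries.

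The higher XTH transcripts came from 2 assembled genes. All 3 isoforms of DN2882_c0_g1, with hits to XTH protein 23, were higher. DN2882_c0_g1_i10 had 229 and 169 scaled counts in hypergravity libraries, against 70.01 and 101 in control libraries, a log2 fold change of 1.21 ± 0.23 (adjusted p = 0.00348). DN2882_c0_g1_i2 had 55.3 and 38.1 in hypergravity libraries, against 27.6 and 19.7 in control libraries, a log2 fold change of 0.95 ± 0.29 (adjusted p = 0.0384). DN2882_c0_g1_i8 had a log2 fold change of 0.71 ± 0.17 (adjusted p = 0.011). Hypergravity library a was the highest of the 4 libraries in all 3 isoforms. Without it, DN2882_c0_g1_i2 had an adjusted p of 0.198 and DN2882_c0_g1_i8 of 0.0723, and DN2882_c0_g1_i2 also lost its call without control library b (adjusted p = 0.174). The number of XTH transcripts called higher was 2 without hypergravity library a, against 5 with all libraries. A second gene with hits to XTH protein 23, DN17792_c1_g1, had 5 isoforms with log2 fold changes of -0.05 to 0.15, and none was called.

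The assembled gene DN12169_c0_g1 held calls in both directions, the 1 case among 18 genes with at least 2 members. Its isoforms DN12169_c0_g1_i10 and DN12169_c0_g1_i12 hit XTH protein 30. DN12169_c0_g1_i10 had 126 and 93.7 scaled counts in hypergravity libraries, against 30.6 and 52.6 in control libraries, a log2 fold change of 1.42 ± 0.29 (adjusted p = 0.00533). DN12169_c0_g1_i12 had 109 and 79.3 in hypergravity libraries, against 30.6 and 48.9 in control libraries, a log2 fold change of 1.25 ± 0.28 (adjusted p = 0.00918). Another isoform with the same hit, DN12169_c0_g1_i1, had 215 and 219 in hypergravity libraries, against 149 and 231 in control libraries, and was not called.

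The other isoforms of DN12169_c0_g1 hit XTH protein 29 and were lower. DN12169_c0_g1_i11 had 1071 and 912 scaled counts in hypergravity libraries, against 1306.5 and 1821 in control libraries, a log2 fold change of -0.64 ± 0.15 (adjusted p = 0.0108). DN12169_c0_g1_i6 had 1352.5 and 1208 in hypergravity libraries, against 1535 and 2160 in control libraries, a log2 fold change of -0.51 ± 0.14 (adjusted p = 0.0275). Several of these calls rested on single libraries. DN12169_c0_g1_i12 had an adjusted p of 0.0571 without hypergravity library a. DN12169_c0_g1_i11 had 0.0605 without hypergravity library b and 0.0514 without control library b, and DN12169_c0_g1_i6 had 0.119 and 0.256 in the same fits. The sum over the 5 isoforms was 2874 and 2512 in hypergravity libraries, against 3052 and 4313 in control libraries, with a log2 fold change of -0.43 ± 0.15 that was not called (adjusted p = 0.0582).

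**Figure D3:**
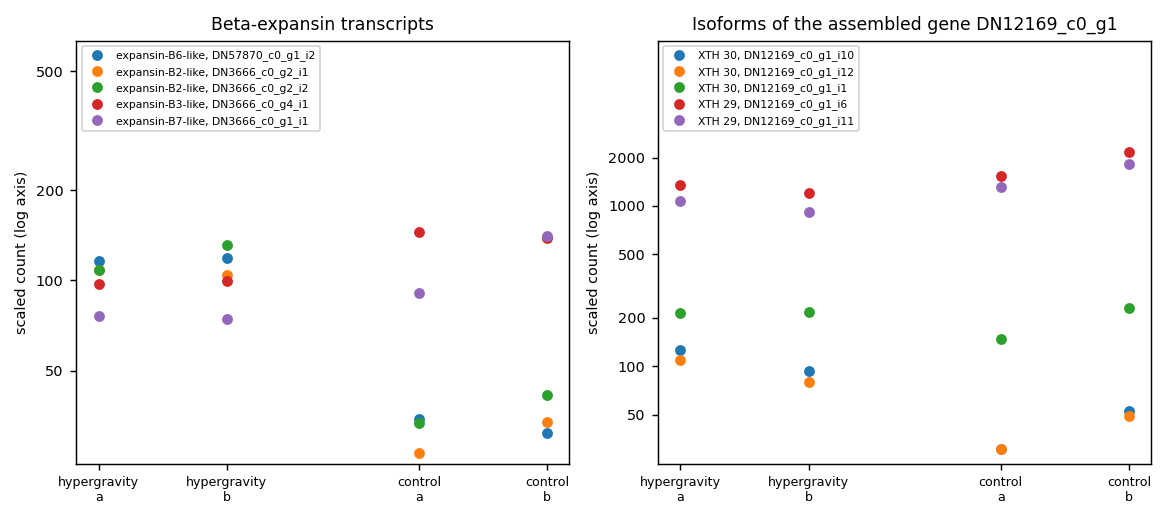
Scaled counts per library on a log axis are shown for the 5 beta-expansin transcripts (left) and the 5 isoforms of DN12169_c0_g1 (right), with hypergravity libraries left of control libraries. Within each panel some transcripts were higher and others lower in hypergravity than in control libraries, but no beta-expansin was called lower. The 2 expansin-B2-like points of hypergravity library a coincide at 108 scaled counts.

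The largest XTH gene by counts did not pass the test. DN14618_c0_g1 had 9 isoforms, 8 with hits to XTH protein 13 and 1 to XTH protein 24-like, with log2 fold changes of -0.15 to 0.42. Their sum was 8366 and 7077 scaled counts in hypergravity libraries, against 6424 and 7485 in control libraries, so the groups overlapped. Without control library b, DN14618_c0_g1_i16 and DN14618_c0_g1_i7 had adjusted p of 0.0121 and 0.00025, against 0.164 and 0.0973 with all libraries. The remaining XTH transcripts were DN35466_c0_g2_i2, named for XTH protein 28, and DN19333_c0_g1_i1, named for XTH 24-like. They had log2 fold changes of -0.13 ± 0.15 and 0.48 ± 0.23 and were not called.

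The 2 libraries of a group also differed between themselves. In the hypergravity group, 29 of the 34 XTH transcripts were lower in library b than in library a, with a median log2 difference, b minus a, of -0.31. In the control group, 27 of 34 were higher in library b than in a, with a median of 0.33. These 34 came from 11 assembled genes and are not independent. Of all 91482 transcripts, 45660 were lower in hypergravity library b than in a, with a median of 0.0006. In the control group, 47270 of them were higher in library b than in a, with a median of 0.0086. The medians of expansin-like transcripts had the same signs as those of XTH, -0.59 in the hypergravity group and 0.31 in the control group. The 4 isoforms of expansin-like B1 did not follow this. Of them, 2 were lower in hypergravity library b than in a, and 1 was higher in control library b than in a. Their median in the control group was -0.49. For backbone enzymes these medians were -0.02 and 0.07, and for side-chain enzymes 0.01 and 0.19. Without regard to sign, the median log2 difference between the libraries was 0.32 in the hypergravity group and 0.38 in the control group for XTH, 0.09 in the hypergravity group and 0.17 in the control group for backbone enzymes, and 0.20 in the hypergravity group and 0.19 in the control group for side-chain enzymes. Over all transcripts it was 0.18 in the hypergravity group and 0.15 in the control group. This is a description of 4 libraries, and the difference between classes was not tested.

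**Figure D4:**
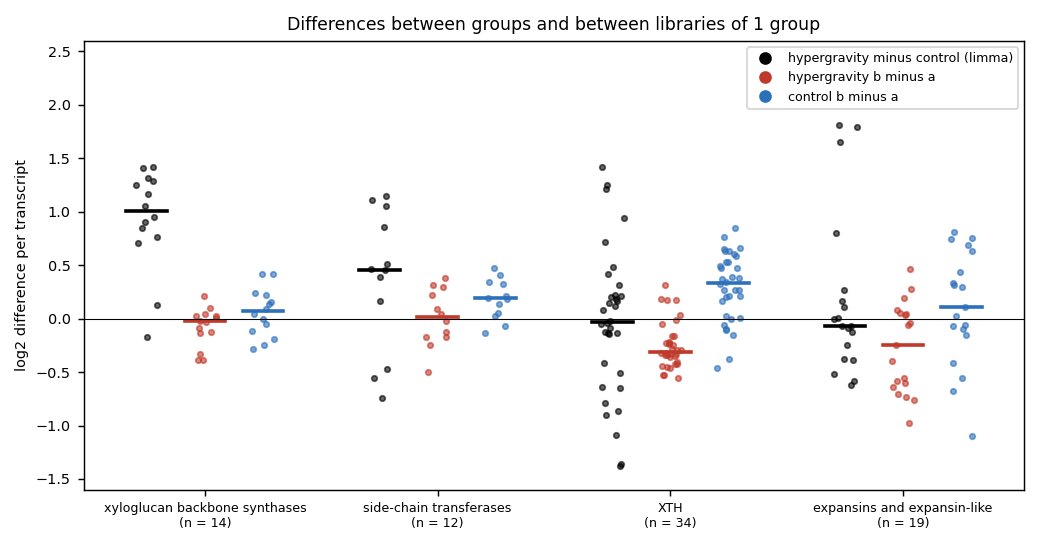
Each point is a transcript of the class named on the horizontal axis, and the vertical axis gives a log2 difference: hypergravity minus control (black), hypergravity library b minus a (red) and control library b minus a (blue), with a bar at each median. In backbone enzymes the 3 medians are 1.0, -0.02 and 0.07, with 2 black points, both of DN345_c0_g1, among the coloured ones, and in XTH they are -0.03, -0.31 and 0.33.

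Expansins were few and mostly of low abundance. The alpha class had 3 transcripts, which summed to 445 and 453 scaled counts in hypergravity libraries, against 673 and 609 in control libraries. Expansin-A10 (DN5072_c1_g1_i1), the most abundant expansin per length with 489 scaled counts per kb, had 324 and 343 in hypergravity libraries, against 526 and 504 in control libraries. It was lower by a log2 fold change of -0.62 ± 0.11 (adjusted p = 0.00278), and the 2 libraries of each group nearly coincided. The 2 isoforms of expansin-A7 were not called. DN5072_c0_g2_i2 had 39.6 and 25.7 in hypergravity libraries, against 43.4 and 40.4 in control libraries. DN5072_c0_g2_i1 had 81.3 and 84.4 in hypergravity libraries, against 105 and 64.8 in control libraries.

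Of the 5 transcripts of the beta class, 3 were called higher, 0 lower and 2 were not called. The share higher was 60%, against 13.5% higher and 11.9% lower among all transcripts, but the class is small. Summed over the isoforms of each gene, 2 of 4 genes were higher and 0 lower, against 14.3% and 12.3% of all assembled genes. Expansin-B6-like (DN57870_c0_g1_i2) had 116 and 118 scaled counts in hypergravity libraries, against 34.5 and 31.0 in control libraries, and its log2 fold change of 1.81 ± 0.21 (adjusted p = 0.000232) was the largest of the 80 members. Of the 2 isoforms named expansin-B2-like, DN3666_c0_g2_i1 had 108 and 104 in hypergravity libraries, against 26.6 and 33.8 in control libraries, a log2 fold change of 1.79 ± 0.23 (adjusted p = 0.000382). DN3666_c0_g2_i2 had 108 and 132 in hypergravity libraries, against 33.5 and 41.3 in control libraries, a log2 fold change of 1.66 ± 0.23 (adjusted p = 0.000558). In all 3, each hypergravity library was more than double each control library. Even so, their levels were modest, and DN3666_c0_g2_i1, the highest of the class, had 99.6 scaled counts per kb over the 4 libraries.

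The other beta-expansins of the same read cluster went the other way without being called. Expansin-B7-like (DN3666_c0_g1_i1) had 76.1 and 74.1 scaled counts in hypergravity libraries, against 90.7 and 141 in control libraries, a log2 fold change of -0.58 ± 0.24 (adjusted p = 0.0986). Expansin-B3-like (DN3666_c0_g4_i1) had 97.0 and 99.9 in hypergravity libraries, against 145 and 138 in control libraries, a log2 fold change of -0.52 ± 0.17 (adjusted p = 0.0519). The hypergravity libraries lay below the control libraries in both, as they did in 32% of all transcripts. Expansin-B3-like fell just under the threshold when libraries were centred on their medians (adjusted p = 0.0459) or when only transcripts with a mean of at least 50 were fitted (0.0459), and expansin-B7-like when control library a was left out (0.0115). The beta class sits close to the grass group 1 pollen allergens in sequence, and the 1 transcript named pollen allergen had 245 and 168 scaled counts in hypergravity libraries, against 146 and 175 in control libraries.

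Expansin-like proteins resemble expansins in sequence, and no wall-loosening activity is established for them. Of their 11 transcripts in 5 genes, 1 was higher and 0 lower, and 0 were lower at an unadjusted p under 0.05. The share higher was 9.1%, against 13.5% higher and 11.9% lower among all transcripts, so neither count lay above the background. DN21322_c0_g1_i1, named expansin-like A2, had 129 and 109 scaled counts in hypergravity libraries, against 65.1 and 70.5 in control libraries, a log2 fold change of 0.80 ± 0.20 (adjusted p = 0.015). Its adjusted p was 0.0831 without hypergravity library a. The shorter isoform DN21322_c0_g1_i3 had 37.5 and 23.7 in hypergravity libraries, against 23.7 and 42.3 in control libraries, so that only the longer one separated the groups. Summed over its isoforms, DN21322_c0_g1 was not called by limma (log2 fold change 0.57 ± 0.21, adjusted p = 0.076). The most abundant of this class per length was expansin-like A1 (DN10782_c0_g1_i1, 151 scaled counts per kb), which had 201 and 118 in hypergravity libraries, against 145 and 180.4 in control libraries. The 4 isoforms of expansin-like B1 (DN10013_c0_g1) had log2 fold changes of -0.38 to 0.17, and the 3 of expansin-like A1 had -0.07 to 0.27.

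The single O-acetylation member, DN32572_c0_g2_i3, was named for ALTERED XYLOGLUCAN 4, which is needed for acetyl groups on xyloglucan in Arabidopsis. It had 20.9 and 18.5 scaled counts in hypergravity libraries, against 21.7 and 19.7 in control libraries. Its libraries overlapped and it was not called.

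Isoforms of an assembled gene share reads, so the test was repeated on sums per gene. Of 39 genes, 13 were higher and 4 lower, against 14.3% and 12.3% of 47167 assembled genes. The higher genes were 6 of 7 for backbone enzymes, 4 of 9 for side-chain enzymes, 1 of 11 for XTH and 2 of 11 for expansins. The backbone genes need not be separate loci. DN3905_c0_g2, DN3905_c0_g3 and DN3905_c0_g4 came from 1 read cluster. The same glycosyltransferase 7 protein was a hit in 4 backbone genes, and the same glycosyltransferase 9 protein in 2. The lower genes were 3 of 11 for XTH and 1 of 11 for expansins, and 0 of 16 for synthesis. In 9 of the 18 genes with at least 2 members, every member was called and in 1 direction. The other 21 genes had 1 member each. The count of 9 was not made over all assembled genes, so it has no background and is not a result about the members.

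Other wall proteins with hits in the same grasses were counted beside the members, by names listed for wall loosening and other hemicelluloses. Of 137 such transcripts, 33 were higher and 14 lower, or 24.1% and 10.2%, against 13.5% and 11.9% of all transcripts, with a median log2 fold change of 0.03. The 14 lower became 9 without hypergravity library a, hypergravity library b or control library b, and the 10928 lower among all transcripts became 7145 without hypergravity library b and 6983 without control library b. Endoglucanases, which cut glucan chains, had 9 of 19 higher and 0 lower, and 0 lower also at an unadjusted p under 0.05. Beta-galactosidases, some of which trim xyloglucan side chains, had 4 higher and 4 lower of 34. Transcripts with extensin in the hit name had 10 higher and 4 lower of 50. They include leucine-rich repeat extensin-like proteins as well as extensins, which are structural glycoproteins of the wall. COBRA-like proteins, which act in cellulose deposition, had 2 higher and 3 lower of 17.

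Mixed-linkage glucan synthases of the cellulose synthase-like F, H and J families split by gene, with 7 higher and 2 lower of 11. The shares were 63.6% and 18.2%, against 13.5% and 11.9% of all transcripts, but the 11 came from 5 assembled genes. The 6 higher isoforms of cellulose synthase-like protein H1, all of DN2641_c0_g1, had log2 fold changes of 0.82 to 0.84. Another H1 transcript, DN2641_c0_g2_i1, had a log2 fold change of -0.31 ± 0.25 and was not called. Both lower transcripts were isoforms of DN6510_c0_g1, named probable mixed-linked glucan synthase 7. The more abundant of them had 283 and 217 scaled counts in hypergravity libraries, against 773 and 1073 in control libraries, a log2 fold change of -1.87 ± 0.17 (adjusted p = 4.9e-05).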

How the data were processed

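Reads were quantified with RSEM, per the submitters' processing notes, which give no version; the assembly settings are not given in the labels or headers used here. The deposited table gives 1 control and 1 hypergravity value per assembled transcript. Per the file headers both columns are FPKM, but in 91482 of 147297 rows the values held more than 2 decimals and were of another kind. Such a deposited signal equalled the sum, over a group's 2 libraries, of a whole read count divided by a size factor. Each sum had exactly 1 pair of counts within 1e-09 (largest error 5.24e-10, smallest error of the next pair 4.67e-07), and the size factors equalled median-of-ratios factors computed from the recovered counts. Nothing ties the recovered libraries to the replicate numbers. The other rows, FPKM with 1 value per group, were not tested.

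Scaled counts, log2(value + 1), were fitted with limma 3.58.1 in R 4.3.3 (eBayes with a mean-variance trend, residual df 2, prior df 7.91, median SE of a log2 fold change 0.177), with Benjamini-Hochberg adjustment over all 91482 transcripts. Fold changes are on that log2(value + 1) scale. No filter on low values was added. The script was tested on simulated data. Members were found by text in the protein description. Each class names every called member, its highest member per kilobase and opposite isoforms of a gene with a call; in classes with over 8 of these, the 4 most positive and 4 most negative are given in full. The members and lists were chosen with earlier results of these data known. Alternatives were other scalings (TMM, median centring), pseudocounts 0.5 and 10, a mean of at least 50, a fit to grass hits alone, hits in any species, sums per gene and each library left out. Voom weights and a match through protein domain names were chosen after seeing the data. None of the 39 protein accessions of the members was found in the RefSeq gene table used (0 matched), so positions and sequences are not given.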

Additional observations from a re-analysis of the deposited data

Results flagged for a closer look

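Rows with FPKM, 1 value per group and no test, held 44 more transcripts with the same words in their hit names. Of 20 with a grass hit, 9 were above and 11 below control in hypergravity roots, with medians of 1.485 FPKM in hypergravity and 1.105 FPKM in control. In 6 of the 9 the hypergravity value was at least 1 FPKM and at least 2-fold the control value, and in 5 of the 11 the control value was at least 1 FPKM and at least 2-fold the hypergravity value. DN3905_c0_g1_i1, named for glycosyltransferase 7 and from the read cluster of the higher backbone gene DN3905_c0_g2, had 22.08 FPKM in hypergravity and was listed at 0 in control. DN14951_c1_g1_i1, named for XTH 8-like, had 8.34 FPKM in hypergravity and 0.17 in control, opposite in direction to the tested XTH 8-like isoforms of DN14951_c0_g1. DN42501_c0_g1_i1, expansin-B2-like, had 2.01 FPKM in hypergravity and 0.39 in control. DN40069_c0_g1_i1, XTH 24-like, had 1.81 and 0.87, DN4516_c0_g2_i1, XTH 8-like, had 1.75 and 0.8, and DN39652_c0_g1_i1, expansin-A28-like, had 1.59 and 0.63, each with hypergravity before control. In the other direction, DN47240_c0_g1_i1, XTH 8-like, had 0.42 FPKM in hypergravity and 3.46 in control, DN1804_c1_g2_i3, XTH 8-like, had 2.07 and 6.72, and DN32033_c0_g1_i1, a fucosyltransferase, had 0.61 and 2.07. DN86604_c0_g1_i1 and DN4494_c0_g1_i2, named for expansin-like A1 and XTH 29, had 0.68 against 1.68 and 0.55 against 1.32. Of the 24 FPKM rows whose hit lay outside these grasses, 21 were above 0 in hypergravity and listed at 0 in control. With 1 value per group these differences have no replicate check, and their source was not tested. The same counts were not made over all FPKM rows, so these have no background and are not a result about the members.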

How the results depend on the processing

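Of the 28 members called higher, 20 kept their call in all 11 alternative fits, and of the 10 called lower, 7 did. No fold change of a called member reversed, and calls were lost only where 1 library was left out (2 of the higher members lay below the mean of 50 and were not refitted there). With each library left out in turn, 20 to 28 members were higher and 7 to 13 lower, XTH had 2 to 6 higher, expansins 1 to 2 lower, synthesis enzymes 0 to 2 lower, gene sums 4 to 7 lower, the other wall proteins 9 to 17 lower, and all transcripts 6983 to 10804 lower. Median centring gave 2 lower expansins and 1 lower synthesis transcript, and a mean of at least 50 gave 2 lower expansins. A fit to grass hits alone called 7725 transcripts higher, since fewer transcripts were tested. At 2-fold, 16 members were higher and 3 lower. Hits in any species gave 28 higher and 11 lower members, and domain names as well as protein names gave 29 and 10. Where no cause is named, the cause was not tested. The planned edgeR and DESeq2 fits on the recovered counts were not run here. No paired analysis was possible because nothing ties the recovered libraries to replicate numbers. With 2 libraries per group, a missed call does not show equal levels.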
